A study of Mus musculus with 6 samples.

Results

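The genes described here encode the subunits of the mitochondrial respiratory complexes I to V, together with assembly factors that share their names. Members were taken by symbol, as every gene named Nduf with a following a, b, c, s or v, Sdha to Sdhd, Uqcr, Cox4 to Cox8 or Atp5 for which the array holds a probe set assigned to that gene alone. A probe set is the group of short probes that reports 1 transcript, and where a gene had several, the one with the highest mean log2 value was used. This gave 90 members, measured by 179 probe sets, among 18193 genes. By protein, 34 members belong to complex I, 4 to complex II, 8 to complex III, 18 to complex IV and 17 to complex V. The other 9 are 8 complex I assembly factors and Cox7a2l, a factor for supercomplexes. Ndufa4 carries a complex I name but encodes a complex IV subunit and was counted there, as was its paralog Ndufa4l2.

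Expression was measured in memory phenotype CD4+ T cells of female C57BL/6 mice aged 8 to 10 weeks with acute, clinically apparent experimental autoimmune encephalomyelitis (EAE), an inflammatory demyelinating disease of the central nervous system that was induced with the myelin oligodendrocyte glycoprotein peptide MOG35-55. All mice had EAE, and no healthy or unimmunised group was analysed here. T cells from the spinal cord, where the lesions form (3 arrays), were compared with T cells from the draining inguinal lymph nodes (3 arrays). The labels give the arrays of each tissue the numbers 1 to 3 and do not say whether an array holds 1 mouse or a pool, so the p-values reflect how much these samples vary, and that variation may be technical.

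Oxidative phosphorylation makes ATP in mitochondria. Complex I (NADH dehydrogenase) and complex II (succinate dehydrogenase) pass electrons to coenzyme Q, complex III passes them on to cytochrome c and complex IV (cytochrome c oxidase) to oxygen. Complexes I, III and IV pump protons, and complex V (ATP synthase) uses the resulting gradient. All complexes except complex II also hold subunits encoded in mitochondrial DNA, which were not analysed here. T cells that are activated raise glycolysis and also enlarge their mitochondria, and memory T cells are known for respiratory reserve.

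The T cell markers Cd4 (6371, 4101 and 2763 on spinal cord arrays 1, 2 and 3, against 7669, 2063 and 2823 in lymph node) and Cd3e (2153, 1358 and 1679, and 2124, 1248 and 1405) were present on every array in overlapping ranges. Of the 8 CD4 T cell markers measured, 0 were called, 4 had positive and 4 negative changes, the most negative being Cd5 (-0.56, lower in spinal cord in all 3 pairs), and the list sum was 39172 to 47363 in spinal cord against 37407 to 51758 in lymph node. Array medians lay between 68 and 71. Of the 16 genes of a macrophage, monocyte and microglia list, 0 were called. When the array number was a block 9 were called higher, against 3.67% of all genes. On all 3 spinal cord arrays 14 were above the lymph node range, against 8.81% of all genes. The summed intensity of that list was 1411, 5898 and 3244 in spinal cord against 703 to 799 in lymph node, and its complement genes C1qa to C1qc read 42 to 286 in spinal cord against 12 to 47 in lymph node. Spinal cord array 2 thus held the highest macrophage signal and array 1 the lowest. Of 4 dendritic cell markers 1, Itgax, was called higher (229, 315 and 246 against 97, 79 and 97, limma adjusted p = 0.0128), and the summed list read 451 to 536 against 269 to 318. The 4 neutrophil markers were not called, with sums of 189, 1082 and 301 against 131 to 187, most of the sum on spinal cord array 2 being S100a8 (752). The 3 NK cell and 6 B cell markers measured were not called, and with the block 1 of each list was called lower, against 7.45% of all genes. For NK cells 2 changes were positive and 1 negative (-1.73), and for B cells 3 and 3 (lowest -1.15). The NK cell sums were 141, 183 and 391 in spinal cord against 195, 478 and 1253 in lymph node. The B cell sums were 258, 243 and 239 against 344, 258 and 241. Of 9 neural and glial markers 0 were called, 8 changes were positive and 1 negative, and the sums overlapped (3957 to 6551 against 4290 to 6648). The 2 erythroid markers were not called, with sums of 219, 73 and 83 against 49 to 59. Of the CD8 T cell, endothelial and striated muscle lists 0 were called. The signal of the 5′ end of Gapdh, which depends on RNA length and amplification, was 1062, 603 and 3792 in spinal cord against 1243, 403 and 4053 in lymph node, high on both arrays of number 3. The part of these differences in the values below was not tested, except where a measurement is given. In samples of this kind fewer cells of a type and less RNA per cell cannot be told apart.

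No member was called different between spinal cord and lymph node T cells, and the subunits as a whole lay slightly lower in spinal cord. Of the 90 members, 0 were called higher and 0 lower by limma with Benjamini-Hochberg adjustment at 0.05 over all genes, against 1.13% of all genes called higher and 1.41% called lower, together 2.54%. At an unadjusted p below 0.05, 0 members were higher and 3 lower, namely Ndufaf6, Ndufs1 and Ndufb5, where 5.39% of all genes were higher and 8.89% lower, so these counts lie below the background. The log2 change, spinal cord minus lymph node, had a median of -0.25 over the members and ran from -1.23 (Ndufa4) to 0.58 (Cox7c), with a median standard error (SE) of 0.25. It was negative for 71 members and positive for 19. Ndufa4 was the 1 member with a change of at least 1 on the log2 scale in either direction.

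The median of all 18193 genes was 0.00, but genes of higher intensity shifted as the subunits did. Among the 6926 genes with a mean intensity of at least 300 the median was -0.19 and 70.5% were negative. The 76 members in that range had a median of -0.26, with 66 negative. When each array was centred on these brighter genes, an alternative chosen after seeing the data, the median over all members was -0.08, against 0.17 for all genes. The values of 8 members did not overlap between tissues with spinal cord lower, and 1 did not overlap with spinal cord higher. Over all genes these shares were 9.68% and 8.81%, so the 8 members lie near the share of all genes and the 1 member below it. Among the brighter genes the shares were 14.1% and 6.11%. The 76 members in that range had 9.21% and 0%, below the brighter genes in both directions. The plot of changes by complex sets each member beside the median of the brighter genes.

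**Figure D1:**
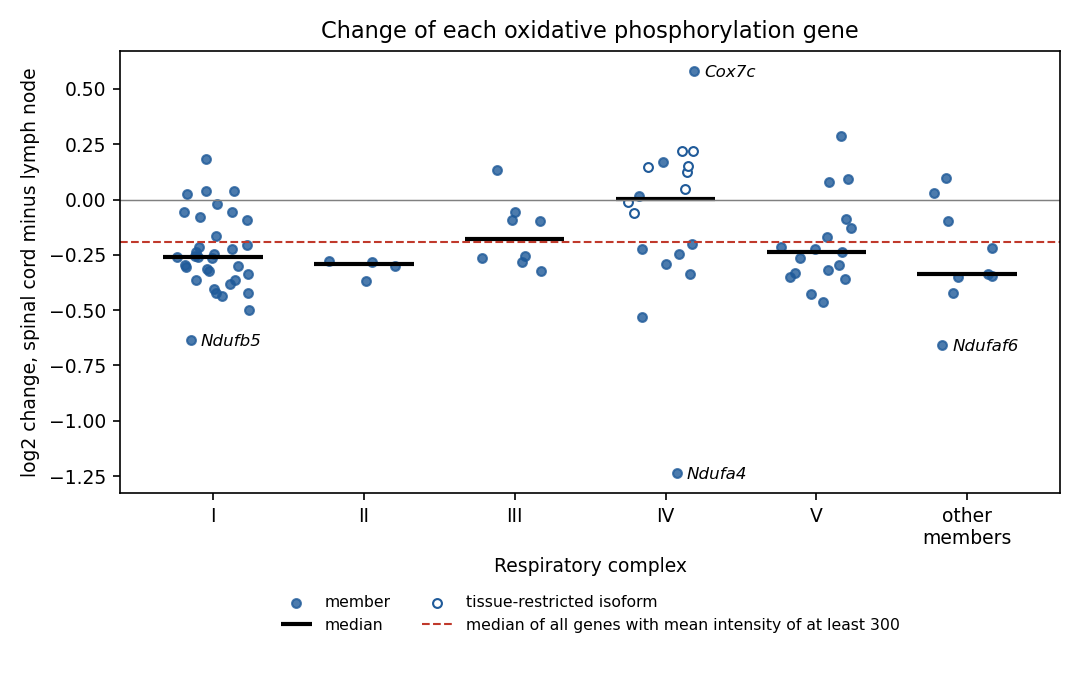
Log2 change (spinal cord minus lymph node, y axis) of each of the 90 members by complex (x axis), with a bar at each median, open circles for tissue-restricted isoforms and a dashed line at the median of all genes with a mean intensity of at least 300 (-0.19). The medians of complexes I, II, III and V lie between -0.29 and -0.18, near the dashed line, and Ndufa4 lies far below the other members at -1.23.

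The shift differed between the numbered pairs of arrays. In pair 1 the median member differed by 0.03 on the log2 scale and 38 of 90 were lower in spinal cord. In pair 2 the median was -0.42 with 73 lower, and in pair 3 it was -0.25 with 72 lower. The brighter genes gave -0.06, -0.23 and -0.26 in the same pairs. The 3′ signals of the poly-A control RNAs, which are added to follow amplification and labelling, had a like order. For DapX the ratio of spinal cord to lymph node was 1.37, 0.421 and 0.438 in pairs 1, 2 and 3, and for LysX, PheX and ThrX it was above 1 in pair 1 and between 0.324 and 0.730 in pairs 2 and 3. Their part in the shift was not tested. In all 3 pairs, 32 members were lower and 9 higher, which is 35.6% and 10% of the members, against 41.1% and 14.4% of the brighter genes and 24.7% and 20.2% of all genes. These 90 members include 14 with a mean intensity below 300, so they are not matched in intensity to the brighter genes. Without spinal cord array 2, the array with the most macrophage signal, the median over the members was -0.05. Without lymph node array 3 it was -0.08, and without any other single array it lay between -0.24 and -0.29.

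**Figure D2:**
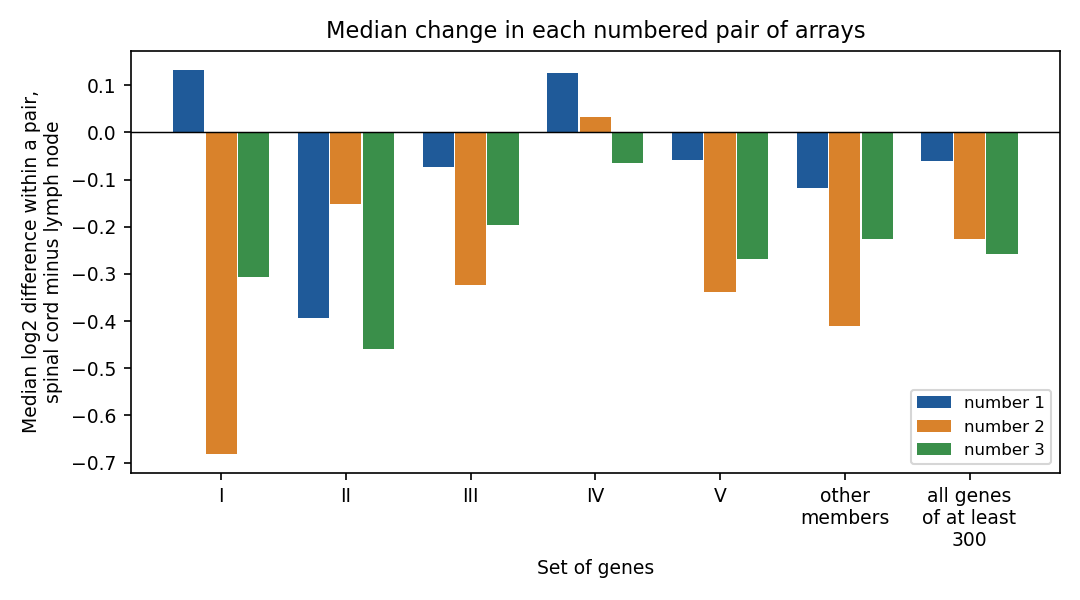
Median log2 difference within each numbered pair of arrays (spinal cord minus lymph node, y axis) for the members of each complex, the other members and all genes with a mean intensity of at least 300 (x axis). Bars are single pairs with no error. Complex I runs from 0.13 in pair 1 to -0.68 in pair 2. Complexes II, III and V, the other members and all genes of at least 300 are below 0 in all 3 pairs.

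Complex I, the largest complex, takes electrons from NADH. Its 34 members had a median log2 change of -0.26, and 30 were negative. The median was -0.062 without spinal cord array 2, -0.089 without lymph node array 3 and -0.092 with centring on brighter genes. The core subunits hold the flavin and the iron-sulfur clusters. Ndufs1, the core subunit with the most iron-sulfur clusters, read 1468, 1743 and 1346 in spinal cord against 1779, 2008 and 2129 in lymph node. All 3 spinal cord values were below the lymph node values, with a change of -0.38 ± 0.14 (SE; limma adjusted p = 0.308). Ndufv1, which binds NADH, read 5046, 3951 and 4475 in spinal cord against 4510, 4184 and 5309 in lymph node. Its groups overlapped and its change was -0.06 ± 0.15, turning to 0.05 with quantile normalization and to 0.11 with centring on brighter genes.

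The core subunits Ndufv1, Ndufv2, Ndufs1, Ndufs3, Ndufs7 and Ndufs8 had changes from -0.44 to -0.06. Among the 28 supernumerary subunits, which surround and stabilise the core, the median was -0.25. Ndufb5 of the membrane arm had the most negative change of complex I. It read 2099, 1869 and 2161 in spinal cord against 2210, 4189 and 3419 in lymph node, so all spinal cord values were below the lymph node range, narrowly so for number 3. The change was -0.63 ± 0.25 (limma adjusted p = 0.319), and a second probe set of Ndufb5 gave -0.50. Ndufc1, another membrane arm subunit, had a change of -0.50 ± 0.29. At the other end, Ndufv3 differed by 0.04 ± 0.23 and Ndufb4 by 0.18 ± 0.13. The probe set used for Ndufb4 read 28 to 37, well under the array medians. The direction of Ndufv3 depended on single arrays.

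Complex II oxidises succinate and belongs to the citric acid cycle as well. All 4 of its members had negative changes, with a median of -0.29. The catalytic flavoprotein gene Sdha read 5726, 6628 and 6214 in spinal cord against 7190, 6993 and 8425 in lymph node. Its groups did not overlap and the change was -0.28 ± 0.13 (limma adjusted p = 0.402). The iron-sulfur subunit Sdhb had a change of -0.30 ± 0.30, and the membrane anchors Sdhc and Sdhd had -0.28 ± 0.33 and -0.37 ± 0.48. Sdhd read 829, 1832 and 2286 in spinal cord against 1619, 1397 and 3286 in lymph node, and without spinal cord array 1 its change was 0.07. Another probe set of Sdhc, with a mean intensity of 500.4, had a change of 0.21. Centred on the brighter genes the median of complex II was -0.12, and without lymph node array 3 it was -0.14.

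Complex III moves electrons from coenzyme Q to cytochrome c. Its 8 members had a median of -0.18, and 7 were negative. The core protein gene Uqcrc1 read 6050, 2711 and 2630 in spinal cord against 6698, 3819 and 3313 in lymph node. Both arrays of number 1 were high, the groups overlapped, and the change was -0.32 ± 0.42. Uqcrc2, the other core protein, narrowly did not overlap between tissues (highest spinal cord value 5296, lowest lymph node value 5315) and had a change of -0.28 ± 0.17. Uqcrfs1, the Rieske iron-sulfur subunit that carries out the electron transfer, was the 1 member of the complex with a positive change, 0.14 ± 0.16. It read 7199, 5125 and 5830 in spinal cord against 5131, 5302 and 5961 in lymph node, and the spinal cord array of number 1 alone lay above the lymph node range. Uqcrq, a small subunit, had -0.06 ± 0.40, and turned positive under several alternatives. Without spinal cord array 2 the median of complex III was 0.07, and centred on the brighter genes it was -0.01.

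Complex V has a catalytic F1 part, a peripheral stalk and a membrane part, Fo. Of its 17 members 14 had negative changes, with a median of -0.24, which was -0.022 without spinal cord array 2 and -0.068 with centring on brighter genes. The 5 F1 genes were all negative, from -0.33 to -0.17. The catalytic subunit Atp5b read 10742, 12527 and 7965 in spinal cord against 12728, 13236 and 11056 in lymph node, with overlapping groups and a change of -0.27 ± 0.19. Atp5a1, the other subunit of the catalytic ring, read 14006, 12507 and 13576 in spinal cord against 14932, 14948 and 17370 in lymph node. Its groups did not overlap and the change was -0.24 ± 0.12 (limma adjusted p = 0.466).

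The 4 peripheral stalk genes had changes from -0.43 (Atp5j, ± 0.21) to -0.09, and the 8 genes of the Fo part from -0.46 (Atp5j2, ± 0.24) to 0.29 (Atp5mpl, ± 0.33). Atp5g1, Atp5g2 and Atp5g3 are separate genes whose mature product, the c subunit that forms the rotor ring, is the same. Atp5g3 read 12916, 12964 and 14973 in spinal cord against 15768, 15179 and 16625 in lymph node, without overlap, with a change of -0.22 ± 0.12. Atp5g1 and Atp5g2 had -0.13 ± 0.39 and -0.35 ± 0.78. Atp5g2 read 370, 280 and 1263 in spinal cord against 633, 284 and 1506 in lymph node, high on both arrays of number 3. With centring on brighter genes Atp5g1 turned to 0.04. Atp5md, another small Fo subunit, had 0.09 ± 0.18.

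Atp5c1, the central shaft of F1, gave different sizes from its 2 probe sets. The brighter one read 11333, 6764 and 7737 in spinal cord against 10502, 10646 and 10535 in lymph node, a change of -0.33 ± 0.20. The dimmer one read 181, 213 and 147 in spinal cord against 455, 552 and 378 in lymph node, with no overlap. Its change was -1.36 (limma adjusted p = 0.0415 over probe sets). As the value for the gene it was called lower (limma adjusted p = 0.0342) when probe sets without a suffix for shared sequence were preferred. What the dimmer probe set detects was not tested, and Atp5c1 was singled out after its values were seen. Of the 51 members with more than 1 probe set, 21 had another of opposite sign, and 54 of the 90 values came from probe sets whose suffix marks probes that may match several transcripts or genes.

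Complex IV reduces oxygen to water. Its 18 members had a median of 0.00, with 9 positive and 9 negative. Its 8 tissue-restricted isoforms had changes from -0.06 to 0.22, and the 10 generally expressed subunits a median of -0.24. When genes below the 40th percentile of mean intensity were left out the complex gave -0.21. The structural subunit Cox4i1 read 12529, 7218 and 8498 in spinal cord against 11330, 11332 and 10956 in lymph node. Spinal cord arrays 2 and 3 were below the lymph node range and array 1 above it, and the change was -0.29 ± 0.21. Cox5a, which lies on the matrix side, had a change of 0.02 ± 0.18 that turned to -0.00444 with median centring. Cox6c had -0.53 ± 0.24, Cox6a1 -0.25 ± 0.23, Cox6b1 -0.22 ± 0.35, Cox7a2 -0.20 ± 0.37 and Cox8a 0.17 ± 0.35.

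Most isoforms known from lung, striated muscle or testis gave dim signals, apart from Cox8c and Cox6a2. Cox8c, the testis form, read 341, 383 and 338 in spinal cord against 377, 323 and 370 in lymph node, with a change of -0.0098 ± 0.12, and the muscle form Cox6a2 read 148 to 205. Cox4i2, the lung and hypoxia isoform, read 65 to 76 on the 6 arrays, with a change of 0.05 ± 0.11. Cox7a1, the muscle isoform, read 15 to 17, with -0.06 ± 0.11. Cox6a2 (0.13 ± 0.18), Cox8b (0.15 ± 0.15), Cox6b2 (0.15 ± 0.26) and Cox7b2 (0.22 ± 0.13) were likewise not called. Of the members, 8 lay below the 40th percentile of mean intensity (74.5), and 6 of them, Cox4i2, Cox6b2, Cox7a1, Cox7b2, Cox8b and Ndufa4l2, are isoforms of this kind. The other 82 members passed that filter.

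Cox7c, a small subunit, had the most positive change of all members. It read 516, 1177 and 688 in spinal cord against 492, 830 and 305 in lymph node, so it was higher in spinal cord within each pair while the groups overlapped. The change was 0.58 ± 0.45 (limma adjusted p = 0.664, and 0.168 with the array number as a block). A second, dimmer probe set gave 0.67. Cox7a2l, the factor for supercomplexes, had -0.10 ± 0.14.

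Ndufa4 stood apart from the other members in the size of its change. Of the variation in its values, 63.5% lay between array numbers and 36.0% between tissues. There are more numbers than tissues, which alone favours the share of numbers, so these shares do not rank the factors. Ndufa4 read 436, 319 and 1251 in spinal cord against 916, 859 and 2879 in lymph node. Both arrays of number 3 were the brightest of their tissue and the groups overlapped, but within each pair the spinal cord value was below that of the lymph node, at ratios of 0.476, 0.371 and 0.435. The log2 change was -1.23 ± 0.67, or 2.35-fold lower, from 9.12 ± 1.03 in spinal cord against 10.36 ± 0.98 in lymph node (log2 mean ± SD, n = 3 each). Limma with tissue alone did not call it (adjusted p = 0.503), and an exact permutation test, two-sided, gave p = 0.3, where 0.1 is the smallest value that 3 against 3 arrays allow. With the array number as a block limma called it lower (SE 0.12, adjusted p = 0.00477).

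With that block 2 of 90 members were called lower, Ndufa4 and Ndufaf6, and 0 higher. Over all genes 7.45% were then called lower and 3.67% higher, together 11.1%, so the count of members was below the background. When both arrays of 1 number were also left out, the call of Ndufa4 was lost each time (without number 1, 2 or 3 the change was -1.32, -1.14 or -1.25, with limma adjusted p of 0.0518, 0.155 and 0.152). Without number 2 or 3, 0 genes were called over all genes, so the losses there are not particular to Ndufa4. Ndufa4 was measured by a single probe set. Its paralog Ndufa4l2, known from hypoxia, read 72 to 85 in spinal cord against 65 to 72 in lymph node, with a change of 0.22 ± 0.12 (limma adjusted p = 0.496).

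A second paralog of Ndufa4 differed far more, in the opposite direction. AA467197 (also Nmes1) encodes a small protein known to take the place of Ndufa4 in complex IV of inflamed cells, among them macrophages. It is not a member and was singled out after its values were seen. It read 3307, 3382 and 3719 in spinal cord against 138, 187 and 328 in lymph node, all spinal cord values being above all lymph node values. It rose 17.0-fold (log2 change 4.09 ± 0.31, limma adjusted p = 0.00556, and 0.00107 with the block). The difference was 24.0-fold, 18.1-fold and 11.3-fold within pairs 1, 2 and 3. It was called without any single array (limma adjusted p from 0.0111 to 0.0442), but with the block it was not called when both arrays of number 2 (0.15) or number 3 (0.0942) were left out. Those blocked fits called 0 genes over all genes, so that loss is not particular to AA467197. The part of the macrophage signal, whose list sum ran from 1411 to 5898 on the spinal cord arrays, was not tested. The RefSeq annotation of GRCm38.p6 places the hairpin of miR-147 (chr2:122640803-122640881) inside the gene (chr2:122637887-122641076). The mature microRNA was not analysed here.

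**Figure D3:**
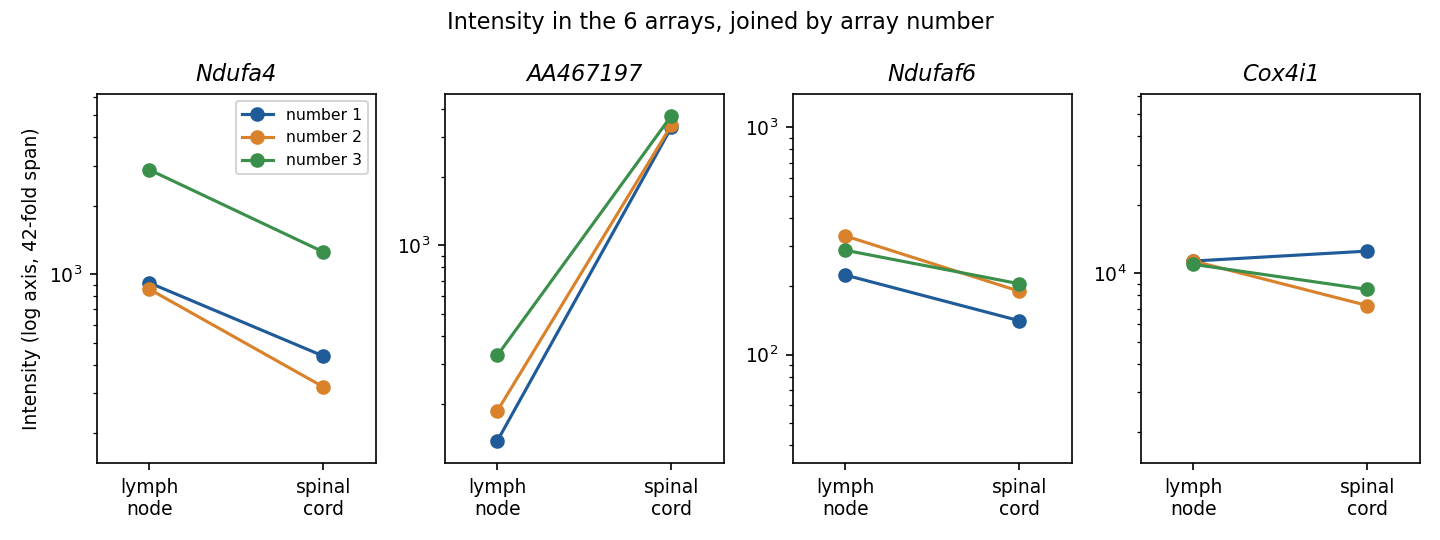
Intensity (log y axes, each spanning the same ratio) of Ndufa4, its paralog AA467197, Ndufaf6 and Cox4i1 in lymph node and spinal cord (x axis), with lines joining the arrays of one number. Ndufa4 and Ndufaf6 are lower in spinal cord in each of the 3 pairs, AA467197 is higher in each, and Cox4i1 goes up in pair 1 and down in pairs 2 and 3.

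The promoters of Ndufa4 and AA467197 were set beside those of Sdha and Cox6a1, chosen because they hold matches to the motifs of NRF1 and of ETS factors such as GABP, which are known to act at many respiratory genes. The motifs searched were GCGCA, any base and GCGC for NRF1 and CCGGAAG for ETS, on both strands, in the RefSeq (GRCm38.p6) window from 250 bases before to 50 after each gene's start. The lines give the 150 bases before the start, 5′ to 3′ on the gene's strand, with matches in capitals.
Ndufa4 (chr6:11907451-11907600, minus strand): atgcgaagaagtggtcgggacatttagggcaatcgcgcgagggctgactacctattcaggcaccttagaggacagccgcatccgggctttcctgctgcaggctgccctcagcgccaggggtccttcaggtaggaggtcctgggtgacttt
AA467197 (chr2:122637737-122637886, plus strand): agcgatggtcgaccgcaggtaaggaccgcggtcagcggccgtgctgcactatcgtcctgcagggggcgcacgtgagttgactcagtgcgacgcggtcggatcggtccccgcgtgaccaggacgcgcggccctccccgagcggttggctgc
Sdha (chr13:74350241-74350390, minus strand): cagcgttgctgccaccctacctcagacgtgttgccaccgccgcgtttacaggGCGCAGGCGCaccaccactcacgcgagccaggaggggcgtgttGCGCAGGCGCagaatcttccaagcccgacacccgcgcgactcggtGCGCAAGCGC
Cox6a1 (chr5:115348959-115349108, minus strand): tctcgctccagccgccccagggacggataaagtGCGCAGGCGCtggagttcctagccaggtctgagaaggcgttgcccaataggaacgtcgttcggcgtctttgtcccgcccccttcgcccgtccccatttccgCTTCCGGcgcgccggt

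Sdha holds 3 matches to the NRF1 letters, and Cox6a1 holds 1 to NRF1 and 1 to ETS. Neither set of letters is in the shown stretch of Ndufa4 or AA467197. Of the 90 members 74 had a promoter in the table, 79 promoters in all, and 18 of these (22.8%) held the NRF1 letters, 19 (24.1%) the ETS letters and 33 (41.8%) either. Among 21263 promoters of protein-coding genes the shares were 6.38%, 11.6% and 16.7%, and among all 32851 promoters they were 4.60%, 8.86% and 12.6%. A match describes the letters and shows no binding.

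Of the 8 complex I assembly factors, which build the complex without being part of it, 6 had negative changes, with a median of -0.34. Ndufaf6 read 141, 190 and 205 in spinal cord against 224, 333 and 288 in lymph node. Its groups did not overlap, and the ratios within pairs were 0.629, 0.571 and 0.712. The change was -0.66 ± 0.21 (limma adjusted p = 0.226), and with the block it was called lower (adjusted p = 0.0265), a call that was lost when both arrays of number 1, 2 or 3 were left out (adjusted p = 0.103, 0.222 and 0.203). Without number 2 or 3 the blocked fit called 0 genes over all genes, so those losses are not particular to Ndufaf6. Ndufaf7, a methyltransferase for a complex I subunit, had -0.35 ± 0.15 and Ndufaf1 -0.34 ± 0.21, neither called.

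A larger share of the members' variation lay between array numbers than between tissues. There are more numbers than tissues, which alone raises that share, so the shares are read only beside those of other genes. For the median member 65.2% of the sum of squares lay between array numbers, 13.8% between tissues and 16.7% in neither. The corresponding medians over all genes were 49.0%, 20% and 15.3%, and over the brighter genes 60.3%, 18.8% and 9.03%. In 24 members (26.7%) over 80% of the variation lay between numbers, near the 19.5% of all genes and 28.9% of the brighter genes. In 0 members over 80% lay between tissues, against 6.07% of all genes. Uqcrh, the hinge protein of complex III, read 1967, 1767 and 6837 in spinal cord against 2207, 1796 and 7354 in lymph node. Number 3 was 3.67-fold above the other 2 spinal cord arrays and 3.69-fold above the other 2 lymph node arrays, and 99.6% of the variation lay between numbers. Atp5e, the small epsilon subunit of F1 (1838, 914 and 4119, and 1915, 1324 and 5051), Atp5g2 and the accessory complex I gene Ndufa3 (4276, 2270 and 8531, and 4687, 3200 and 10560) had the same order. The 5′ signal of Gapdh given above was also highest on both arrays of number 3. Uqcrc1 and Ndufa10 ran the other way and were lowest on number 3 in both tissues. The map of all members shows these rows as 2 adjacent cells of like colour.

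**Figure D4:**
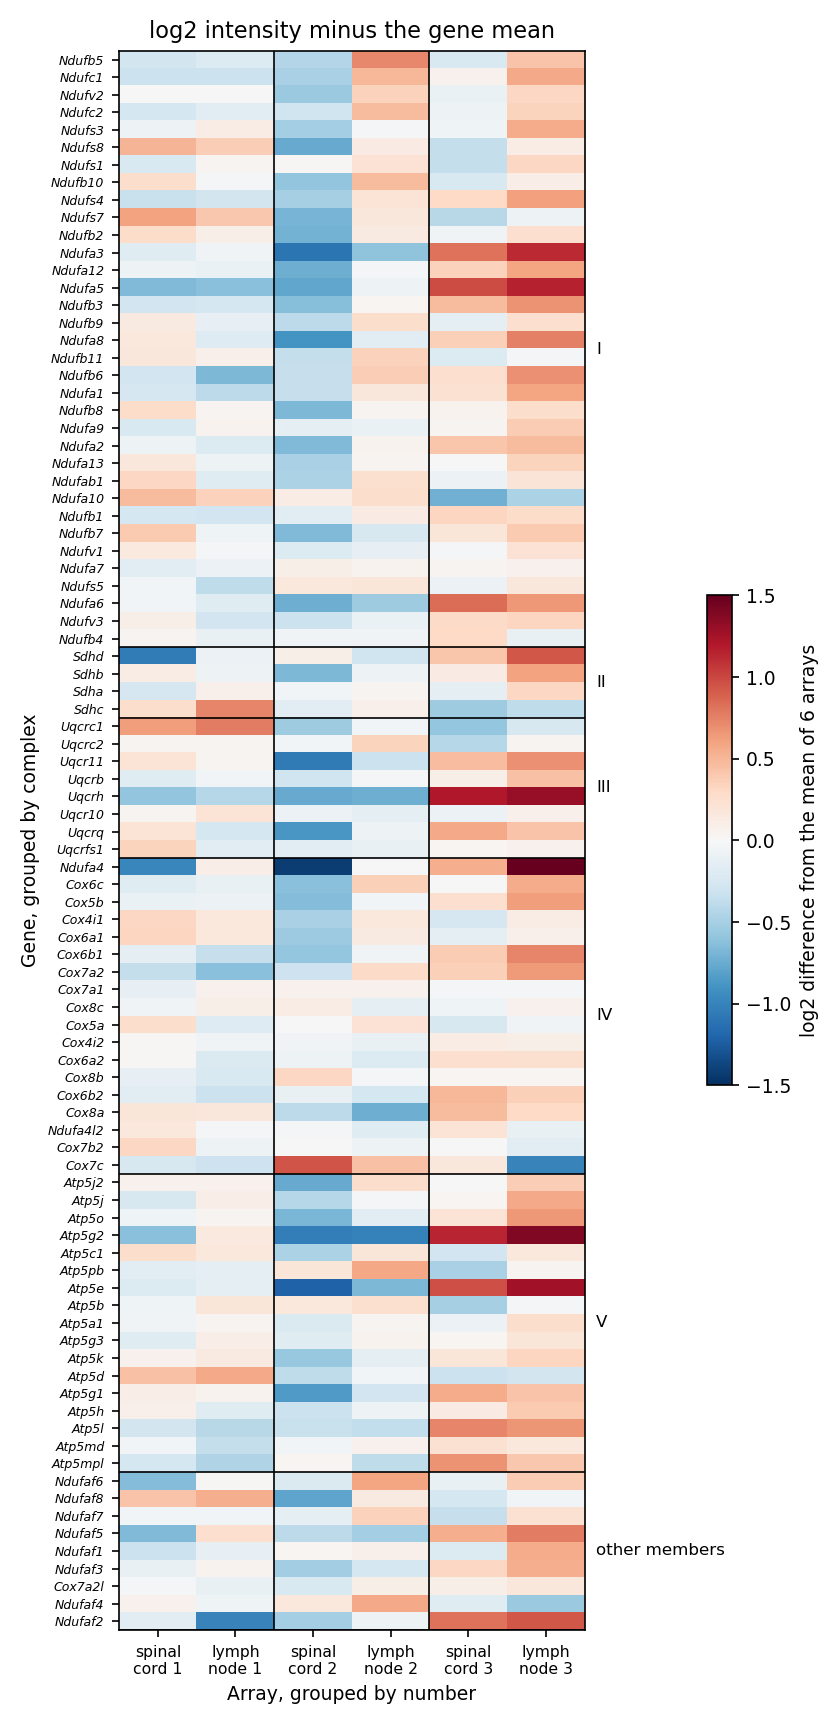
Log2 intensity minus the gene's mean over the 6 arrays (colour) for the 90 members (rows, grouped by complex and ordered by change) on the arrays (columns, grouped by number). Genes such as Uqcrh, Atp5e and Ndufa3 are high on both arrays of number 3, while Ndufa4 is lower in the spinal cord column of every number.

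Other genes of mitochondrial respiration, taken from lists by function, had medians like those of the subunits. Of 40 genes of cytochrome c and assembly, 0 were called and the median was -0.30; with the block 1 was higher and 3 lower. The lowest p in that list belonged to Tmem186, a complex I assembly factor (195, 169 and 228 in spinal cord against 280, 298 and 390 in lymph node; -0.70 ± 0.18, limma adjusted p = 0.138, and 0.0219 with the block). Of 17 citric acid cycle and pyruvate genes 0 were called, with a median of -0.23 and 4 lower with the block. Suclg2, a subunit of succinyl-CoA ligase, had -0.71 ± 0.15 (limma adjusted p = 0.079, and 0.0425 with the block). Of 76 mitochondrial ribosomal protein genes 0 were called and 72 were negative, with a median of -0.33 and 4 lower with the block. Mrpl18 had the lowest p there (-0.62 ± 0.12, limma adjusted p = 0.0676, and 0.0359 with the block). The 9 carriers and channels had a median of -0.18 with 0 called, among them the ATP carrier Slc25a4 (-0.38 ± 0.24). Over all genes 7.45% were called lower and 3.67% higher with the block. The 3 of 40 and the 4 of 76 lie near or below that 7.45%, and the 4 of 17 above it. Those 17 genes had a median mean intensity of 2515, against 129 for all genes. The share called with the block among genes of like intensity was not computed, so the 4 of 17 is not read as an excess. Among the brighter genes 70.5% were negative, a lower share than the 72 of 76.

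Of 15 regulators of mitochondrial biogenesis 0 were called, with a median of -0.32. Tfam, which packages mitochondrial DNA and starts its transcription, read 903, 1174 and 944 in spinal cord against 1460, 2239 and 1747 in lymph node. All spinal cord values were below the lymph node range, and the change was -0.84 ± 0.20 (limma adjusted p = 0.111, and 0.012 with the block, which calls it lower). The blocked calls of Tfam, Tmem186, Suclg2 and Mrpl18 were each lost when both arrays of number 1, 2 or 3 were left out (limma adjusted p for Tfam 0.0587, 0.184 and 0.202). Without number 2 or 3 the blocked fit called 0 genes over all genes. The losses there are thus not particular to these genes, nor to Coq10b below. The coactivator Ppargc1b had -0.79 ± 0.27 (limma adjusted p = 0.246) and the factor Nrf1 0.18 ± 0.40, while Ppargc1a read 19 to 27 on the 6 arrays, which is dim. Among 12 genes of coenzyme Q synthesis and handling, Coq10b, which encodes a coenzyme Q binding protein of the inner membrane, rose, and the list median was -0.25. Coq10b read 1136, 1428 and 2508 in spinal cord against 387, 482 and 444 in lymph node, with no overlap, 3.66-fold higher (1.87 ± 0.30, limma adjusted p = 0.0377). Its call was lost without spinal cord array 2 (limma adjusted p = 0.129) or lymph node array 1 (0.1), 2 (0.14) or 3 (0.118), and with the mean of its probe sets (0.329), a floor at the 20th percentile (0.106) or an offset of 32 (0.0666). With the block it was called (0.00725), but not when both arrays of number 1 (0.0679), 2 (0.169) or 3 (0.102) were left out.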

How the data were processed

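The deposited table held whole-number probe-set intensity values on a linear scale for 45101 probe sets and 6 arrays. Per the submitters' processing notes they came from RMA, with no version stated. Per the labels' protocols, biotin-labelled cRNA was amplified in 2 cycles from 1 ng of total RNA, which can shorten the 5′ ends measured. Log2 was taken before any test. Gene names came from the platform annotation; those assigned to several symbols were set aside, which left out 8 symbols of the rule. No pair of arrays was a copy: the lowest share of probe sets with unequal values was 93.5%.

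All 18193 genes were fitted with limma 3.58.1 (lmFit, eBayes) in R 4.3.3, by tissue alone, with two-sided p-values adjusted over all genes. Python 3.11.15, pandas 2.3.3 and matplotlib 3.10.9 handled tables and figures. The fit was tested on simulated data with independent noise on each array and no difference between array numbers. That test cannot show how the fit behaves where array numbers differ, as they did here. The labels number the arrays 1 to 3 in each tissue. Each array's deviations from its tissue's mean had Pearson correlations across genes, which are not independent, of 0.576, 0.509 and 0.777 between same-numbered arrays, so the numbers were taken to pair them; this rests on the data, not the labels, and part of the contrast is built in by centring. Members, lists and alternatives were chosen with earlier results of these data known. The rule named called members, the 2 largest and 2 smallest changes of each complex, isoform sets, core subunits, 3 assembly factors, the leading genes of each list and 4 regulators; other genes, among them Atp5c1, AA467197, Uqcrh, Atp5e, Ndufa3 and Ndufa10, were named after their values were seen. The number of arrays, n = 3 per tissue, limits the precision. Alternatives were the block, each array left out, filters, scalings, a variance model, probe-set choice, a floor, an offset, thresholds and the choice of members.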

Additional observations from a re-analysis of the deposited data

How the results depend on the processing

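With n = 3 arrays per tissue a median SE of 0.25 limits what can be called, and the 6 isoforms of complex IV below the 40th percentile carry little signal. The replicate block, the array number as a term, gave 2 members called lower instead of 0; among the other results tested here it changed the calls given beside each gene above. The mean of probe sets and the preference for probe sets without a suffix each gave 1 lower (Atp5c1), and in the other alternatives 0 members were called in either direction. Over all genes, 206 higher and 257 lower became 668 and 1355 with the block, 0 and 0 with the block when number 2 or number 3 was left out, 77 and 84 with a floor at the 20th percentile, 56 and 47 at a threshold of 0.01, 322 and 472 at 0.1, and 49 to 136 higher and 32 to 190 lower without single arrays. The causes were not tested, beyond the smaller number of arrays.

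The median over the members lay between -0.35 and -0.05 over all alternatives. The median of complex IV was -0.21 without dim genes and -0.24 over its general subunits alone. With quantile normalization complex III gave -0.049. Centred on brighter genes, complexes II, III, IV and V gave -0.12, -0.0091, 0.17 and -0.068. Without single arrays complexes I, III and V ranged from -0.36 to -0.062, -0.26 to 0.065 and -0.27 to -0.022, each highest without spinal cord array 2, and complex II from -0.37 to -0.14. With the block and without number 1, complex III gave -0.32.

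Of 52 genes tried, 18 changed sign under some alternative, 45 times in all, never past the threshold (lowest limma adjusted p 0.309). With quantile normalization Uqcrq, Cox7a2l and Ndufv1 gave 0.083, 0.00134 and 0.050. Median centring gave -0.00444 for Cox5a. The mean of probe sets gave 0.013 for Uqcrq, and probe sets without a suffix gave 0.24 for Uqcrq and 0.13 for Slc25a4. Centring on brighter genes gave 0.11 for Uqcrq, Cox7a1 and Ndufv1, 0.069 for Cox7a2l and 0.037 for Atp5g1. With the block and without number 1, Ndufv3, Uqcrfs1, Atp5md and Cox5a gave -0.13, -0.041, -0.018 and -0.20. Without number 2, Uqcrq, Cox7a2l, Atp5g1 and Nrf1 gave 0.31, 0.011, 0.085 and -0.046, and without number 3 Ndufv1 gave 0.040.

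Without single arrays the changes ranged from -0.66 to 0.069 for Sdhd, -0.54 to 0.015 for Sdhc, -0.14 to 0.041 for Ndufv1 and -0.095 to 0.21 for Ndufv3. They ranged from -0.36 to 0.36 for Uqcrq, -0.44 to 0.26 for Atp5g1, -1.01 to 0.26 for Atp5g2 and -0.063 to 0.19 for Atp5md. In complex IV they ranged from -0.11 to 0.14 for Cox5a, -0.47 to 0.083 for Cox6b1, -0.056 to 0.37 for Cox6b2, -0.56 to 0.067 for Cox7a2 and -0.15 to 0.41 for Cox8a, and for Nrf1 from -0.10 to 0.53.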
